A study of Marmota monax with 203 samples.

Results

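The genes described here are the hepatic cytochrome P450 (CYP) genes of woodchucks chronically infected with woodchuck hepatitis virus (WHV). They were chosen by symbol and level. Of 17587 genes in the count files, 55 carried a symbol made of CYP and a digit, 5 of these were left out by name because they belong to sterol and bile acid synthesis (CYP51A1, CYP7A1, CYP7B1, CYP8B1 and CYP27A1), and 6 had a mean under 0.5 CPM (counts scaled to a common library size) over all biopsies, which left 44 genes. CYP21A2 (mean 0.559 CPM), CYP4Z1 (0.623 CPM) and CYP1B1 (0.983 CPM) were the nearest inside this level, and CYP2W1 (0.0792 CPM), CYP26C1 (0.024 CPM) and CYP11B1 (0.0218 CPM) the nearest below it, at some distance. The rule used no difference between groups.

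Cytochromes P450 are haem enzymes that insert oxygen into small molecules with electrons passed on by P450 oxidoreductase and cytochrome b5. In the liver, members of families 1, 2 and 3 oxidise drugs, toxins and steroids, members of family 4 act mainly on fatty acids and eicosanoids, and smaller families act on vitamin D, retinoids, sterols or steroid hormones. Hepatocytes near the central vein hold most of the drug-metabolising members, and nuclear receptors such as NR1I3 (the constitutive androstane receptor), NR1I2 (the pregnane X receptor) and PPARA are known inducers of families 2, 3 and 4.

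All animals were adult woodchucks bred in captivity and infected with WHV as newborns. One arm received recombinant woodchuck interferon alpha (wIFN-α, IFN-alpha in the labels) by subcutaneous injection 3 times a week and the other received Placebo. The wIFN-α dose was 20 µg at weeks 1 and 4 and 100 µg at weeks 8, 12 and 16, with the week 1 biopsy taken 6 h after the first 20 µg dose and the week 8 biopsy 6 h after the first 100 µg dose. Weeks -3, 20 and 24 were without treatment. Weeks are given as in the labels, which call the first week of dosing week 1. Dose and time on treatment increased together and cannot be told apart. There were 11 wIFN-α and 12 placebo biopsies at week -3, 11 and 12 at week 1, 9 and 12 at week 4, 9 and 12 at week 8, 8 and 10 at week 12, 8 and 9 at week 16, 6 and 5 at week 20, and 6 and 9 at week 24. The same animals were sampled repeatedly and some were lost, so the weeks are not independent of each other. The wIFN-α animal 1004 was not used in the comparisons, since it was probably clearing WHV naturally.

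The 149 biopsies held between 12072840 and 84805845 counts (median 28754894). Skeletal muscle genes took over 5% of the reads in 5 biopsies. In the 144 others muscle genes took 0.0263 to 3.01% of reads, 12 hepatocyte markers took 6.85 to 18.9% (median 9.82%), and the 44 P450 genes took 1.39 to 4.23% (median 2.99%). A placebo biopsy of week -3 (animal 1016) and a wIFN-α biopsy of week -3 (animal 1018) held 14.3% and 14.6% muscle reads, 0.0369% and 0.0241% hepatocyte marker reads and 0.417% and 0.3% P450 reads, so these 2 libraries nearly lacked the transcripts of their labelled tissue. The other 3 muscle-rich biopsies were from placebo animals 1011 (5.49% muscle reads) and 1021 (12.3%) at week 4 and wIFN-α animal 1023 (8.08%) at week 1. Calls that changed when these biopsies were left out are named beside the result. A further wIFN-α biopsy, of animal 1013 at week 4, had 683 CPM of the interferon-stimulated gene MX1, against 4877 to 8012 CPM in the other wIFN-α animals and 175 to 752 CPM in the placebo animals of that week.

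Gene symbols are the human names the authors gave to woodchuck transcripts by sequence similarity. Counts of close relatives, such as CYP2A6, CYP2A7 and CYP2A13, CYP2C8, CYP2C18 and CYP2C19, CYP3A4, CYP3A5, CYP3A7 and CYP3A43, CYP2B6 and CYP2B7P1, CYP2D6 and CYP2D7P1, CYP4A11 and CYP4A22, and the CYP4F genes, could share reads, so values within such a group are uncertain and its members are not independent observations. The names CYP2B7P1, CYP2D7P1 and CYP4F30P belong to human pseudogenes and say nothing of the woodchuck transcript.

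To see which P450 genes dominate this liver, levels between genes were compared per transcript length, as the authors' RPKM (reads scaled by transcript length and run total) in 81 placebo biopsies. The highest median was that of CYP2C19 (969 RPKM, quartiles 788 and 1201), followed by CYP3A7 (900.1, quartiles 726 and 1082), CYP1A2 (756, quartiles 384 and 1027), CYP2D6 (723, quartiles 569 and 826), CYP2E1 (610.0, quartiles 510.0 and 822), which oxidises ethanol and small solvents, and CYP4A22 (589, quartiles 524 and 663), a fatty acid hydroxylase. The quartile ranges of neighbours in this order overlapped, so their order is not resolved beyond the spread among biopsies. CYP1A1 (582 RPKM) and CYP27C1 (406 RPKM) came next. At the other end, CYP26A1, CYP4X1, CYP4Z1, CYP26B1, CYP21A2 and CYP1B1 had medians from 1.09 down to 0.035 RPKM. These ranks did not change when the deepest run of each biopsy replaced the mean over runs. They rest on the lengths of the assembled transcripts, which were not checked. In counts not scaled by length, CYP2E1 had the highest mean over all biopsies (5695 CPM, against 3472 CPM for CYP2C19).

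**Figure D1:**
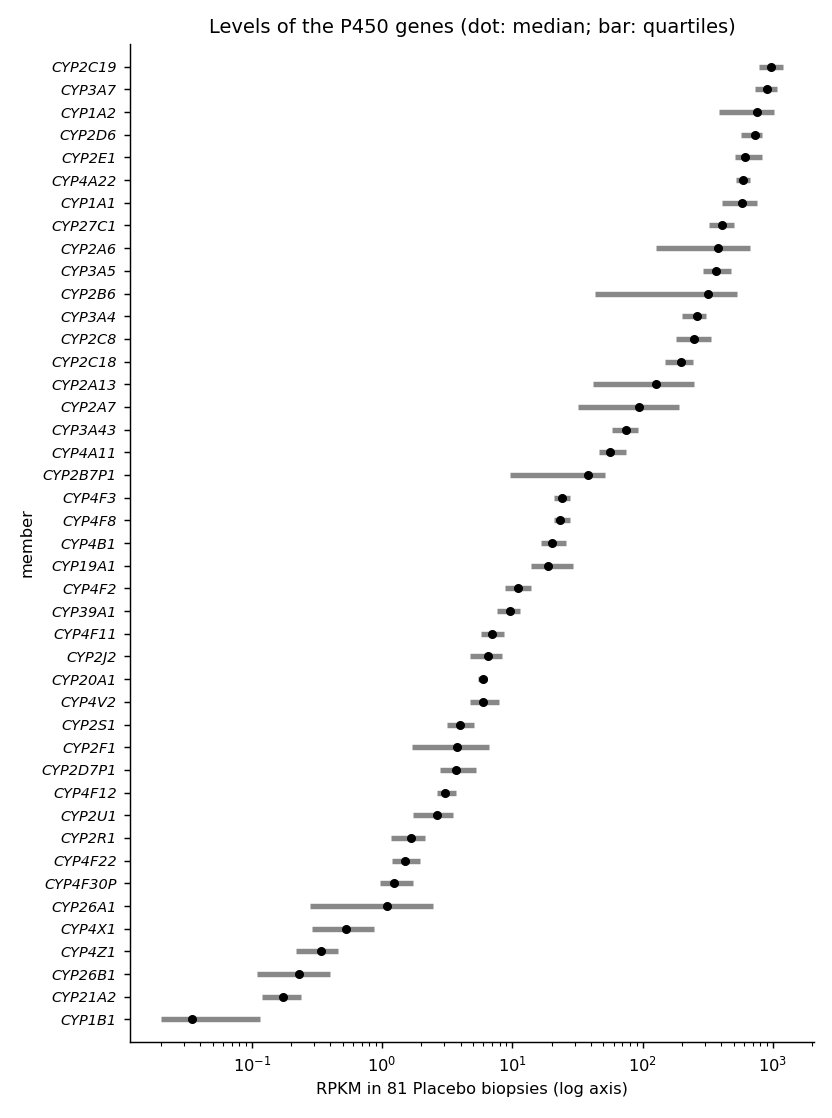
Level of 43 of the 44 P450 genes in 81 placebo biopsies, in RPKM on a log axis, with points at the median and bars from the lower to the upper quartile. The medians run from 0.035 RPKM (CYP1B1) to 969 RPKM (CYP2C19), and the bars of CYP2A6, CYP2A7, CYP2A13, CYP2B6 and CYP26A1 are among the wide ones.

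To ask how wIFN-α treatment altered P450 expression, the arms were compared at each week with edgeR's quasi-likelihood test. A gene was called at a Benjamini-Hochberg adjusted p under 0.05 over all genes tested together with a fold change above 1.5. Of the 44 P450 genes 43 passed the filter on low counts at most weeks, 44 at week 12 and 42 at week 20. Before treatment no P450 gene was called (0 of 43, and 0.0% of all genes tested) and none had an unadjusted p under 0.05. DESeq2 and limma-voom called none either. These tests included the week -3 biopsies that nearly lacked hepatocyte transcripts, which limits what they could resolve. Leaving out the muscle-rich biopsies added no call at week -3. During dosing 24 of the 44 genes were called lower in at least 1 week, against 16.5% of all genes tested, 2 were called higher, against 17.4%, 18 were called in no week and none was called in both directions.

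At week 1, 6 h after the first 20 µg dose, 5 of 43 P450 genes were called lower, against 8.15% of all genes tested, and 2 were called higher, against 10.3%. At week 4 none was called lower (3.54% of all genes) and 2 were called higher (7.24%). In that week 6 P450 genes had an unadjusted p under 0.05, DESeq2 called CYP21A2 lower and limma-voom called CYP4F30P lower. With 100 µg the lower calls became more numerous. At week 8, 9 of 43 genes were called lower (10.1% of all genes) and 2 higher (11.4%), at week 12, 15 of 44 were lower (7.98%) and 2 higher (12.6%), and at week 16, 20 of 43 were lower (8.83%) and 2 higher (13.4%). The median log2 fold change (wIFN-α minus placebo) of the P450 genes was -0.30, -0.14, -0.34, -0.46 and -0.57 at weeks 1, 4, 8, 12 and 16, where the median over all genes lay between -0.04 and -0.01. Of the genes called lower at week 12, 13 were also called lower at week 16, while 6 were called lower at both week 8 and week 16. Counts of different weeks rest on different numbers of animals, and the difference between weeks was tested separately, as given further on.

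The same animals contributed to several weeks, so the comparison was repeated with each animal as a replicate block, which measures the change of each arm from its own week -3 level. In this paired fit 2 P450 genes were lower at week 1 (6.76% of all genes), 1 at week 4 (3.71%), which was CYP21A2, 1 at week 8 (6.66%), 7 at week 12 (5.78%) and 11 at week 16 (7.23%). The 2 week -3 biopsies that nearly lacked hepatocyte transcripts enter this fit as starting points. Without the 5 muscle-rich biopsies the paired fit called 7, 10, 16 and 22 P450 genes in either direction at weeks 1, 8, 12 and 16, where it called 18.9%, 18.7%, 19.1% and 21.7% of all genes, and 6, 6, 12 and 17 of these P450 genes were called in the unpaired comparison as well. In the unpaired comparison itself, leaving out the muscle-rich biopsies of weeks 1 and 4 lost the call of CYP4Z1 at week 1 (-0.89, adjusted p = 0.0595) and added lower calls of CYP26B1 at week 1 (-1.82, adjusted p = 0.018) and CYP4F30P at week 4 (-0.63, adjusted p = 0.0217).

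**Figure D2:**
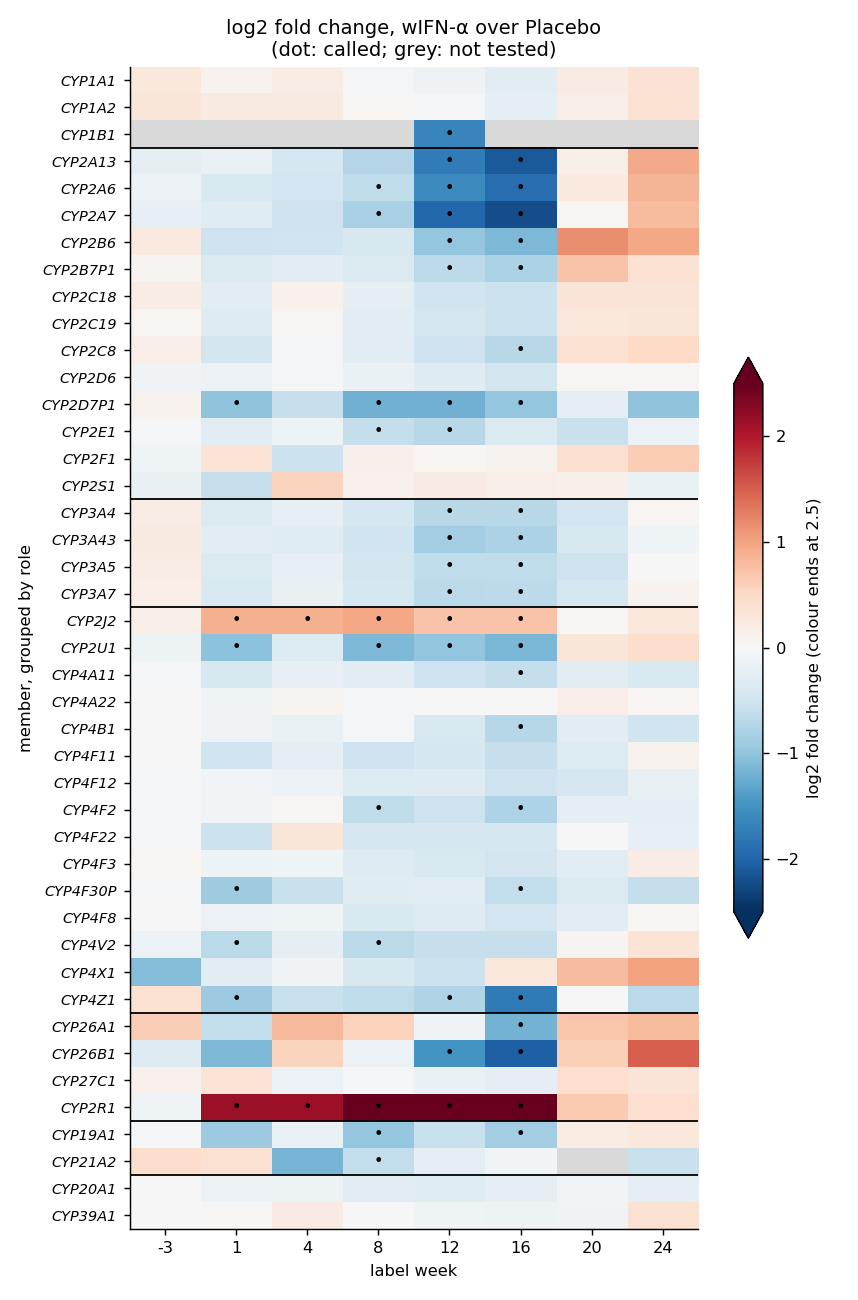
Log2 fold change (wIFN-α minus placebo) of 43 of the 44 P450 genes at each label week, coloured from lower to higher in wIFN-α, with dots on the called values, grey where a gene was not tested and colours ending at a change of 2.5. CYP2R1 and CYP2J2 are the rows called higher at weeks 1 to 16, lower calls gather at weeks 12 (15 genes) and 16 (20 genes), and no dots stand at weeks -3, 20 and 24.

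Together the 44 P450 genes took a smaller share of reads in treated animals during the 100 µg period. At week 8 they took 2.98 to 4.21% of reads (median 3.38%) in placebo animals and 2.26 to 2.92% (median 2.63%) in wIFN-α animals, and these ranges did not overlap. The medians were 3.29 and 2.25% at week 12 and 3.62 and 2.4% at week 16, with overlapping ranges. At week 20 they were 3.34 and 3.42%, and at week 24 2.95 and 3.51%. These shares are given as a description, with no test. In bulk tissue, fewer hepatocytes and less P450 RNA per hepatocyte cannot be told apart from a P450 level alone. The 12 hepatocyte markers had median log2 fold changes from 0.04 to 0.11 in the dosing weeks, with none called lower.

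The P450 gene with the strongest response went up. CYP2R1 encodes a microsomal enzyme that carries out the hepatic hydroxylation step of vitamin D activation. At week 1 its level was 1.84 to 4.51 CPM (median 3.19) in 12 placebo animals and 8.19 to 28.1 CPM (median 11.5) in 11 wIFN-α animals, a 4.42-fold difference (log2 fold change 2.15 ± 0.20 SE, adjusted p = 4.12e-09). Every treated animal lay above every control. At week 4 placebo animals had 0.77 to 3.14 CPM (median 2.45) and wIFN-α animals 1.59 to 18.3 CPM (median 12.0), again 4.42-fold (2.14 ± 0.28, adjusted p = 8e-06). The ranges met only through animal 1013, the biopsy with the low MX1 level, at 1.59 CPM, since the other treated animals had 6.71 to 18.3 CPM. CYP2R1 was also called without this biopsy.

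With 100 µg the difference in CYP2R1 was larger. At week 8 placebo animals had 2.15 to 6.06 CPM (median 3.57) and wIFN-α animals 16.8 to 35.6 CPM (median 25.1), 6.33-fold higher (2.66 ± 0.16, adjusted p = 4.14e-12). At week 12 the values were 2.02 to 4.02 CPM (median 3.13) and 14.9 to 35.8 CPM (median 21.4), 7.42-fold higher (2.89 ± 0.18, adjusted p = 9.7e-11). At week 16 they were 1.73 to 4.15 CPM (median 3.05) and 6.95 to 32.4 CPM (median 23.4), 7.65-fold higher (2.94 ± 0.26, adjusted p = 5.06e-08). In these 3 weeks the arms did not overlap. The week 16 effect exceeded the mean of weeks 1 and 4 by 0.76 ± 0.30, which did not pass the test of that difference (adjusted p = 0.178). CYP2R1 stayed called in all 5 dosing weeks with the replicate block and when any single animal that was tried was left out. After treatment it was 1.95 to 4.71 CPM (median 3.71) against a placebo median of 1.7 CPM at week 20 (0.66 ± 0.37, adjusted p = 0.46), and the arms overlapped.

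CYP2J2, an epoxygenase of arachidonic acid, was the other P450 gene called higher, with smaller differences and overlapping arms. At week 8 its level was 9.47 to 35.2 CPM (median 19.5) in placebo and 24.1 to 69.7 CPM (median 39.5) in wIFN-α animals, 1.96-fold higher (0.97 ± 0.23, adjusted p = 0.00164). Its log2 fold changes in the other dosing weeks were 0.88, 0.89, 0.71 and 0.71 in the order of weeks 1, 4, 12 and 16 (adjusted p = 0.00898, 0.00223, 0.0299 and 0.0199). The calls at weeks 1, 4 and 8 were kept with the replicate block, and those at weeks 12 (0.52, adjusted p = 0.0472, a fold below the threshold) and 16 (0.44, adjusted p = 0.103) were not. The week 12 call was lost without wIFN-α animal 1003, 1013 or 1018, with values from 0.57 to 0.63, and the week 16 call without 1013 or 1018, at 0.50 to 0.62.

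**Figure D3:**
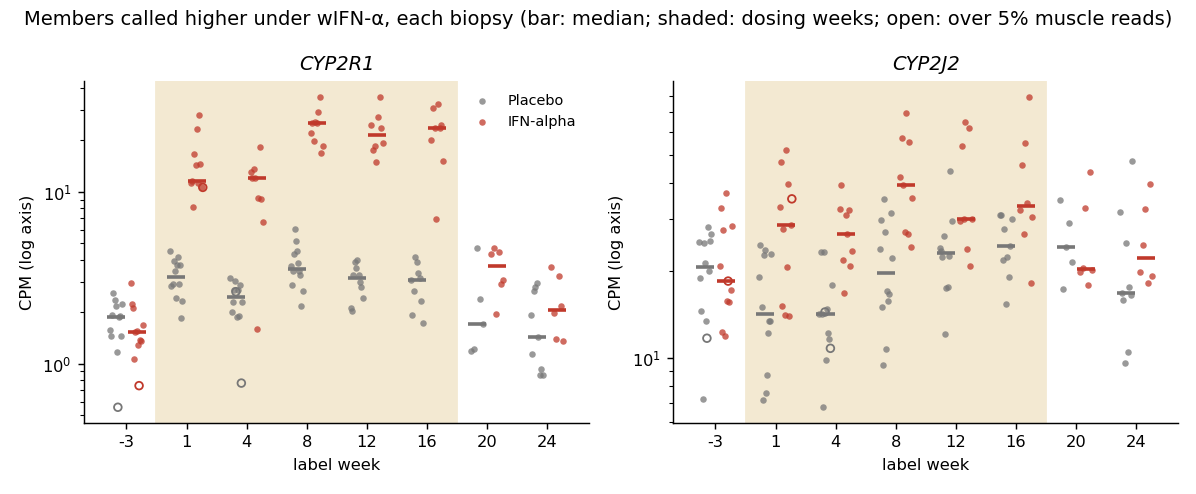
CPM of CYP2R1 and CYP2J2 in every biopsy by label week on a log axis, placebo and wIFN-α side by side, with bars at the medians and open circles for biopsies with over 5% muscle reads. CYP2R1 separates the arms at weeks 1, 8, 12 and 16 and not at weeks 20 and 24, whereas the CYP2J2 ranges overlap at every week.

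Among the 14 drug- and steroid-oxidising genes of family 2 that are not placed with the fatty acid enzymes, 1, 0, 4, 7 and 7 were called lower at weeks 1, 4, 8, 12 and 16 and none was called higher. Over all genes tested 8.15, 3.54, 10.1, 7.98 and 8.83% were called lower in these weeks. The CYP2A genes, whose human products oxidise coumarin and nicotine, had the largest differences from placebo at weeks 12 and 16. Their medians were higher in these weeks than at week -3 in both arms, less so under wIFN-α. Without the muscle-rich biopsies the CYP2A7 median in wIFN-α animals was 21.3 CPM at week -3 and 48.2 CPM at week 16. In placebo animals it was 22.2 and 201 CPM. CYP2A7 was 138 to 742 CPM (median 194) in placebo and 48.7 to 129 CPM (median 82.8) in wIFN-α animals at week 12, 3.88-fold lower and without overlap (-1.96 ± 0.35, adjusted p = 0.000238). At week 16 it was 98.9 to 735 CPM (median 201) and 29.1 to 148 CPM (median 48.2), 4.67-fold lower (-2.22 ± 0.47, adjusted p = 0.00101), with the highest treated animal inside the placebo range.

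CYP2A13 and CYP2A6 were also called lower at weeks 12 and 16. At week 16 CYP2A13 was 239.9 to 1549 CPM (median 439) in placebo and 76.3 to 356 CPM (median 123) in wIFN-α animals (-2.09 ± 0.44, adjusted p = 0.00106), and at week 12 its arms did not overlap (-1.75 ± 0.33, adjusted p = 0.000357). CYP2A6 was 353 to 1807 CPM (median 774) and 101 to 493.2 CPM (median 191) at week 16 (-1.90 ± 0.40, adjusted p = 0.00094). At week 12 it was lower than in placebo by 1.59 on the log2 scale (adjusted p = 0.000182). These calls at weeks 12 and 16 were kept with the replicate block (log2 fold changes from -2.05 to -1.50) and without any single animal tried. The smaller week 8 calls of CYP2A6 (-0.64) and CYP2A7 (-0.82) were not kept with the block, at -0.60 each (adjusted p = 0.45 and 0.468). The week 8 call of CYP2A6 was lost without wIFN-α animal 1003 or 1012 (-0.57 to -0.56) and that of CYP2A7 without 1002, 1003, 1012, 1013, 1018 or 1022 (-0.82 to -0.72).

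CYP2B6, a drug-oxidising enzyme and a known target of NR1I3, was called lower at weeks 12 and 16. At week 16 it was 413 to 2314 CPM (median 1115) in placebo and 94.7 to 934 CPM (median 593) in wIFN-α animals, 2.18-fold lower (-1.12 ± 0.37, adjusted p = 0.0213), with overlapping arms. For week 12 the fitted difference was -0.96 ± 0.26 (adjusted p = 0.00645). The week 16 call was kept with the replicate block (-1.64, adjusted p = 0.0284) and the week 12 value was -1.46 (adjusted p = 0.0514). Without the muscle-rich biopsies the paired week 12 value was called (-1.52, adjusted p = 0.0379). Its relative CYP2B7P1 was called lower in the same weeks (-0.66 and -0.80), with the block at week 16 only (-1.20, adjusted p = 0.0215, against -1.0 and 0.0618 at week 12), and in both weeks with the block once the muscle-rich biopsies were left out (adjusted p = 0.0116 and 0.0342).

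**Figure D4:**
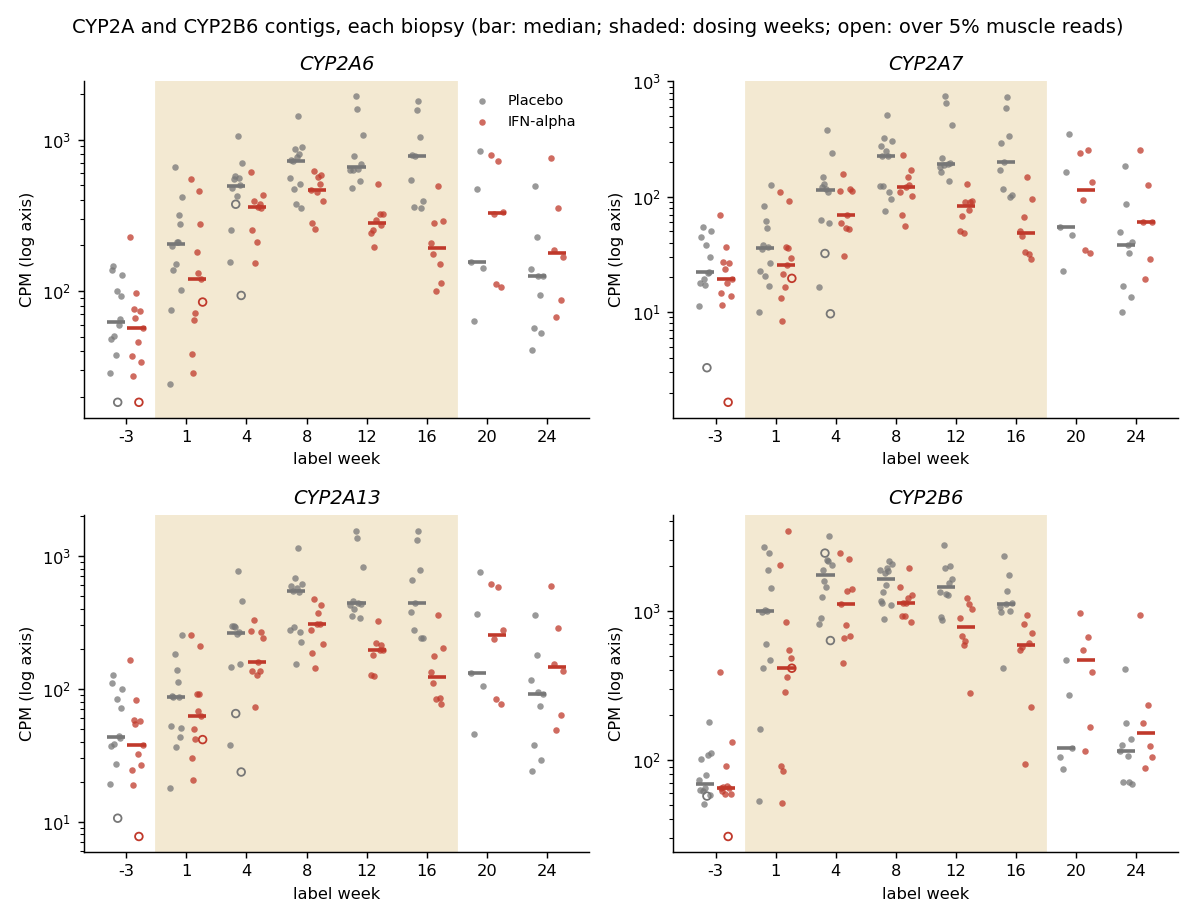
CPM of CYP2A6, CYP2A7, CYP2A13 and CYP2B6 in every biopsy by label week on log axes, with bars at the medians and open circles for muscle-rich biopsies. In placebo animals the levels differ several-fold between weeks, and at weeks 12 and 16 the wIFN-α medians (82.8 and 48.2 CPM for CYP2A7) lie below those of placebo (194 and 201 CPM).

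CYP2D7P1 was called lower at weeks 1, 8, 12 and 16. At week 8 it was 3.84 to 14.1 CPM (median 7.9) in placebo and 2.33 to 4.50 CPM (median 3.62) in wIFN-α animals (-1.21 ± 0.22, adjusted p = 9.73e-05). In the paired fit with the replicate block it was called at week 12 (-1.32, adjusted p = 0.0397) and not at weeks 1, 8 and 16 (-1.02, -1.05 and -1.02, adjusted p = 0.0846, 0.0886 and 0.122). Once the muscle-rich biopsies were left out, the paired fit called it in all 4 weeks (-1.26 to -0.91, adjusted p from 0.00569 to 0.0371). CYP2D6, which oxidises many drugs and is its far more abundant relative, was called in no week, with log2 fold changes from -0.45 to -0.04.

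CYP2E1 was called lower at weeks 8 and 12. At week 12 it was 1736 to 5842 CPM (median 4315) in placebo and 1603 to 3588 CPM (median 2550) in wIFN-α animals (-0.69 ± 0.22, adjusted p = 0.0181), and at week 8 it was -0.60 ± 0.18 (adjusted p = 0.011). Neither call was kept with the replicate block (-0.63 and -0.60, adjusted p = 0.365 and 0.372), and the week 8 call was lost without wIFN-α animal 1012, 1013 or 1014 (-0.57 to -0.53). At week 16 the value was -0.37 (adjusted p = 0.334).

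In the CYP2C group, whose human members oxidise drugs and arachidonic acid, CYP2C8 was called at week 16 (-0.69 ± 0.23, adjusted p = 0.0247). Its levels there were 532 to 803 CPM (median 734) in placebo and 122 to 769 CPM (median 439) in wIFN-α animals, with overlap. The call was kept with the block (-1.18, adjusted p = 0.0284) and lost without wIFN-α animal 1002 or 1020 (-0.62 to -0.55). CYP2C18 and CYP2C19 had adjusted p-values of 0.00521 and 0.0242 at week 16 with a log2 fold change of -0.54 each, which was below the fold threshold. With the block CYP2C18 was called lower at weeks 12 and 16 (-0.80 and -0.91, adjusted p = 0.0423 and 0.0185). The paired fit without muscle-rich biopsies called CYP2C18 and CYP2C19 in both weeks (-0.90 to -0.60) and CYP2C8 at weeks 1, 8, 12 and 16 (-1.15 to -0.66). CYP2F1 and CYP2S1 were called in no week.

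The 4 genes of family 3, whose human members include the main drug-oxidising enzyme of the liver, moved alike. None was called at weeks 1, 4 or 8, and all 4 were called lower at weeks 12 and 16, where 7.98% and 8.83% of all genes were. CYP3A43 was 149 to 311 CPM (median 250.4) in placebo and 54.5 to 196 CPM (median 120) in wIFN-α animals at week 12 (-0.87 ± 0.21, adjusted p = 0.00331). CYP3A7, the most abundant of them, was 2328 to 4875 CPM (median 4265) and 1100 to 3751 CPM (median 2278) at week 16, 1.58-fold lower (-0.66 ± 0.24, adjusted p = 0.032). CYP3A4 was -0.69 and -0.70 and CYP3A5 -0.64 and -0.63 at weeks 12 and 16. All 4 had overlapping arms in both weeks.

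These family 3 calls lay near the fold threshold. Their blocked log2 fold changes were larger, from -1.25 to -1.0, but only CYP3A43 at week 12 was called (adjusted p = 0.0484), since the other adjusted p-values lay between 0.0538 and 0.124. With the muscle-rich biopsies left out, the paired fit called all 4 genes at weeks 12 and 16 (-1.21 to -0.95, adjusted p from 0.000166 to 0.00498), and CYP3A4, CYP3A5 and CYP3A43 also at week 8 (-0.75 to -0.65, adjusted p from 0.0164 to 0.0484). CYP3A4 and CYP3A43 kept their calls without any single animal tried. The week 12 call of CYP3A7 was lost without wIFN-α animal 1002 (-0.57), and its week 16 call without wIFN-α 1002, 1003, 1018 or 1020 or placebo 1011 (-0.63 to -0.55). The CYP3A5 calls were lost at week 12 without wIFN-α 1002, 1018 or 1020 (-0.57 to -0.55) and at week 16 without wIFN-α 1002, 1003, 1018 or 1020 or placebo 1005, 1011, 1016 or 1017 (-0.61 to -0.52).

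Of the 15 fatty acid and eicosanoid enzymes (family 4 with CYP2J2 and CYP2U1), 4, 0, 3, 2 and 6 were called lower at weeks 1, 4, 8, 12 and 16. The shares over all genes tested were 8.15, 3.54, 10.1, 7.98 and 8.83%. CYP2U1, a long-chain fatty acid hydroxylase, was called lower at weeks 1, 8, 12 and 16. At week 1 it was 3.98 to 14.2 CPM (median 9.1) in placebo and 2.60 to 9.06 CPM (median 3.26) in wIFN-α animals, 2.03-fold lower (-1.02 ± 0.24, adjusted p = 0.00155). At week 16 it was 14.4 to 39.6 CPM (median 24.1) and 6.45 to 16.5 CPM (median 10.3), 2.22-fold lower (-1.15 ± 0.20, adjusted p = 0.000144). The arms overlapped at both weeks. These calls were kept with the replicate block, from -1.22 to -1.0, and without any single animal tried. At week 4 the value was -0.35 (adjusted p = 0.403).

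CYP4F2, which acts on leukotrienes and on vitamins E and K, was called at weeks 8 and 16. At week 8 it was 22.6 to 32.9 CPM (median 28.7) in placebo and 15.3 to 21.5 CPM (median 18.7) in wIFN-α animals, without overlap (-0.64 ± 0.07, adjusted p = 1.15e-07), and at week 16 the value was -0.78 ± 0.12 (adjusted p = 6.85e-05). Its adjusted p with the replicate block was 0.146 at week 8 (-0.65) and 0.0745 at week 16 (-0.82), and without the muscle-rich biopsies the paired fit called it in both weeks (-0.62 and -0.78, adjusted p = 0.00685 and 0.0012). Its relatives CYP4F3, CYP4F8, CYP4F11 and CYP4F12 had adjusted p-values from 0.00199 to 0.00388 at week 16 but log2 fold changes between -0.57 and -0.46, below the fold threshold. Of these CYP4F11 was called lower at week 16 by the paired fit without muscle-rich biopsies (-0.67, adjusted p = 0.00298) and by DESeq2.

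CYP4B1 was called at week 16 only, at 26.3 to 56.3 CPM (median 40.5) in placebo and 17.6 to 35.2 CPM (median 23) in wIFN-α animals (-0.72 ± 0.16, adjusted p = 0.0015), and the call was kept with the block (-0.67, adjusted p = 0.00479), though not with the block once the muscle-rich biopsies were left out. CYP4V2, a fatty acid hydroxylase known for its role in the retina, was called at weeks 1 and 8 (-0.67 in both, adjusted p = 0.00554 and 0.00212), and not with the block (-0.55 and -0.59, adjusted p = 0.127 and 0.116). CYP4A11 was called at week 16 (-0.59 ± 0.21, adjusted p = 0.0298), not with the block (adjusted p = 0.318), and not without wIFN-α 1002, 1013, 1018 or 1020 or placebo 1001 or 1011 (-0.58 to -0.49). The more abundant CYP4A22 was called in no week, with log2 fold changes from -0.11 to 0.07.

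Both CYP4Z1 and CYP4F30P lay near the lower limit of measurement. CYP4Z1 was 0.321 to 1.12 CPM (median 0.58) in placebo and 0 to 0.276 CPM (median 0.194) in wIFN-α animals at week 16, without overlap (-1.76 ± 0.40, adjusted p = 0.00177), and this call was kept with the block (-2.14, adjusted p = 0.000315) and without any single animal tried. Its calls at week 1 (-0.90) and week 12 (-0.75) were lost without any of 9 of 11 and 6 of 8 wIFN-α animals left out in turn, with values from -0.92 to -0.61. CYP4F30P, near 1 CPM, was called at week 1 (-0.89, adjusted p = 0.0072) and week 16 (-0.61, adjusted p = 0.0386), in neither with the block (adjusted p = 0.0553 and 0.294), and at week 1 with the block once the muscle-rich biopsies were left out (-0.77, adjusted p = 0.0196). Its week 16 call was lost without any of 9 of the 17 animals left out in turn (-0.62 to -0.49).

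Beside CYP2R1, the vitamin D and retinoid enzymes comprised CYP26A1 and CYP26B1, which break down retinoic acid, and CYP27C1, a retinoid desaturase. CYP26B1 was called lower at weeks 12 and 16. At week 16 it was 0.779 to 5.08 CPM (median 3.27) in placebo and 0.126 to 1.38 CPM (median 0.741) in wIFN-α animals, 4.12-fold lower (-2.04 ± 0.47, adjusted p = 0.00189). With the replicate block the week 16 value was -1.65 (adjusted p = 0.128) and the week 12 value -1.11 (adjusted p = 0.332), so neither was called. The week 12 call (-1.50 ± 0.54, adjusted p = 0.0364) was also lost without wIFN-α 1002, 1003, 1013, 1014, 1020 or 1022 (-1.50 to -1.31).

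CYP26A1 was called lower at week 16, at 4.42 to 26.9 CPM (median 12.0) in placebo and 1.26 to 11.3 CPM (median 5.19) in wIFN-α animals (-1.18 ± 0.45, adjusted p = 0.0413). The call was kept with the block (-2.11, adjusted p = 0.0218), and lost without wIFN-α 1003, 1013, 1014, 1020 or 1022 or placebo 1001, 1008, 1015 or 1016 (-1.19 to -1.0). At week 4 its log2 fold change was 0.81 (adjusted p = 0.0931). The abundant CYP27C1 was called in no week, with log2 fold changes from -0.24 to 0.34.

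**Figure D5:**
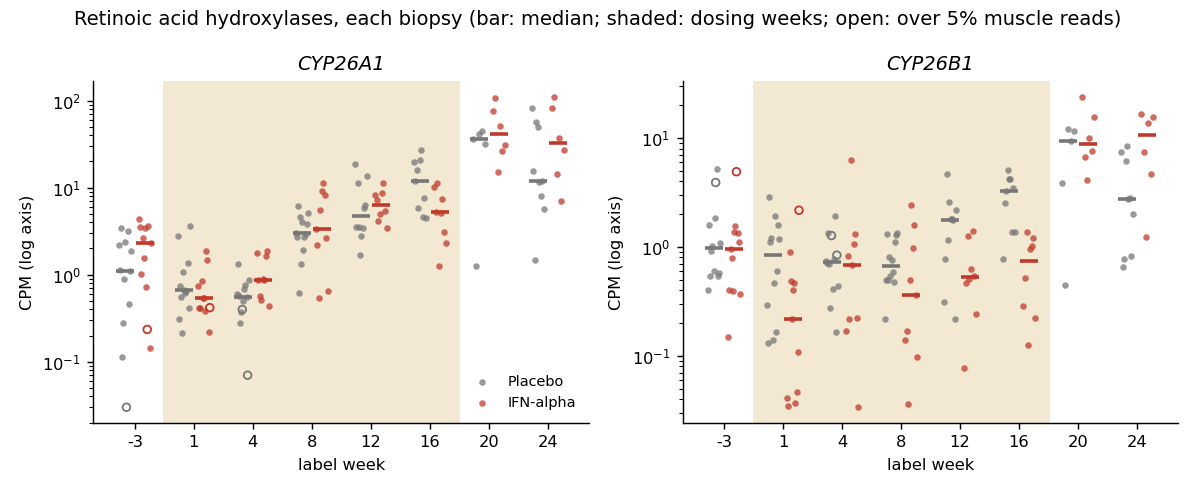
CPM of CYP26A1 and CYP26B1 in every biopsy by label week on log axes, with bars at the medians, open circles for muscle-rich biopsies and values under 0.03 CPM drawn at 0.03. The medians of both genes stand higher at week 20 than at week 4 in both arms, and the CYP26B1 medians at week 16 are 3.27 CPM in placebo and 0.741 CPM in wIFN-α.

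CYP19A1, the aromatase that makes oestrogens, was called lower at weeks 8 and 16. At week 8 it was 90.2 to 176 CPM (median 139) in placebo and 48.4 to 113 CPM (median 64.1) in wIFN-α animals, 1.95-fold lower (-0.97 ± 0.15, adjusted p = 1.59e-05), with overlap. At week 16 the log2 fold change was -0.87 ± 0.27 (adjusted p = 0.0146). In the paired fit the values were -1.07 and -0.96 (adjusted p = 0.0835 and 0.146), and without the muscle-rich biopsies it called both (-1.02 and -0.91, adjusted p = 0.0148 and 0.0411). CYP21A2, an adrenal steroid hydroxylase, was measured here near the lower limit. In the unpaired comparison it was called at week 8 only (-0.61 ± 0.24, adjusted p = 0.0453). That call was lost with the block (adjusted p = 0.169) and without wIFN-α 1003, 1007, 1012, 1013, 1014, 1018 or 1020 (-0.63 to -0.55). At week 4 CYP21A2 was -1.17 (adjusted p = 0.0572) unpaired and was called with the block (-1.40, adjusted p = 0.0421). The paired fit without muscle-rich biopsies called it at week 4 as well (-1.34, adjusted p = 0.027).

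The aryl hydrocarbon receptor targets CYP1A1 and CYP1A2, which oxidise planar aromatic compounds, were called in no week. CYP1A2 was 2098 to 4669 CPM (median 3254) in placebo and 2029 to 3584 CPM (median 2597) in wIFN-α animals at week 16 (-0.22 ± 0.16, adjusted p = 0.277), and CYP1A1 was -0.29 (adjusted p = 0.114). A lack of a call does not show that the arms were equal. CYP1B1, the third target, is mainly known from other tissues and was under 1 CPM in 133 of 149 biopsies. It passed the filter at week 12 only, where it was 0.0971 to 2.40 CPM (median 0.449) in placebo and 0 to 0.611 CPM (median 0.21) in wIFN-α animals (-1.66 ± 0.61, adjusted p = 0.0386). It was not called with the block (-1.38, adjusted p = 0.49) or without wIFN-α 1002, 1003, 1012, 1013, 1014 or 1022 (-1.70 to -1.50).

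The 2 remaining genes showed little difference. CYP20A1, a P450 of unassigned function, had adjusted p-values of 0.00105, 0.00209 and 0.0159 at weeks 8, 12 and 16, but its log2 fold changes of -0.28, -0.31 and -0.25 were below the fold threshold. CYP39A1, an oxysterol hydroxylase, had log2 fold changes from -0.12 to 0.21 and adjusted p-values of at least 0.424.

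To test whether the response at the end of the 100 µg period differed from that under 20 µg, the week 16 difference between arms was compared with the mean of the week 1 and week 4 differences in 1 fit of all weeks. No P450 gene passed an adjusted p of 0.05, against 2.26% of all 16232 genes tested, 9 had an unadjusted p under 0.05, and DESeq2 passed CYP2A7 and CYP2A13. In the unpaired edgeR fit these 2 were at -1.84 ± 0.61 (adjusted p = 0.0865) and -1.81 ± 0.60 (adjusted p = 0.0837). With the replicate block 4 of the 44 genes passed, all lower, where 2.0% of all genes passed in that direction. They were CYP2A7 (-2.06 ± 0.53, adjusted p = 0.00684), CYP2A13 (-2.03 ± 0.52, adjusted p = 0.00708), CYP2A6 (-1.71 ± 0.51, adjusted p = 0.0222) and CYP4B1 (-0.52 ± 0.17, adjusted p = 0.0461). Without the muscle-rich biopsies the paired fit passed 7 genes, these 4 with CYP2C18, CYP4F2 and CYP4X1, all lower, where 3.68% of all genes passed in that direction, and the unpaired fit passed CYP4F2 alone, where 0.834% did.

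The effect of repeated 20 µg doses was compared with that of the first by subtracting the week 1 difference from the week 4 difference. Only CYP1B1 passed (7.41 ± 1.33, adjusted p = 7.82e-05), where 1.87% of all genes passed in that direction. This value rests on a few biopsies. In 6 of 149 biopsies there were at least 5 CPM of CYP1B1, namely in placebo animals 1008 (25.1 CPM), 1009 (6.54 CPM) and 1021 (11.3 CPM) at week 1, placebo 1021 at week -3 (5.49 CPM), placebo 1009 at week 8 (30.6 CPM) and wIFN-α animal 1012 at week 4 (31.1 CPM). With the replicate block the difference was 4.26 ± 1.41 (adjusted p = 0.0839) and no P450 gene passed, with 7 at an unadjusted p under 0.05. Without the muscle-rich biopsies the unpaired fit passed CYP2S1 as well. The paired fit without them passed CYP2S1 (1.02, adjusted p = 0.00403) and CYP4F22 (0.77, adjusted p = 0.034), where 325 of all 16179 genes passed in that direction.

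After the end of treatment no P450 gene was called at week 20 (0 of 42, and 0.0% of all genes) or at week 24 (0 of 43, and 0.0% of all genes) by edgeR, DESeq2 or limma-voom. In edgeR 7 and 6 of them had an unadjusted p under 0.05. CYP3A4 and CYP3A7 had arms that did not overlap at week 20. CYP3A4 was 919 to 1321 CPM (median 1125) in 5 placebo animals and 722 to 874 CPM (median 823) in 6 wIFN-α animals (-0.47 ± 0.12, adjusted p = 0.297). The median log2 fold change over the P450 genes was 0.05 at week 20 and 0.19 at week 24. For the 4 genes of family 3 it was -0.46 at week 20 and 0.03 at week 24. All 4 were lower at week 20, each with an unadjusted p under 0.05 in edgeR. With 5 or 6 animals in the smaller arm, moderate differences could not be resolved in these weeks.

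Because sex differences in P450 expression are well known in rodents, females and males were compared at week -3. No P450 gene of 43 was called (0.0668% of all genes), 3 had an unadjusted p under 0.05, limma-voom called none and DESeq2 called CYP26B1 (1.54 ± 0.43, adjusted p = 0.031). The 2 week -3 biopsies that nearly lacked hepatocyte transcripts were both from females. Without the muscle-rich biopsies 8 genes had an unadjusted p under 0.05 and the smallest adjusted p was 0.0516, that of CYP2D6, with 1937 to 3567 CPM (median 2457) in 10 females and 1314 to 2340 CPM (median 1777) in 11 males (0.51 ± 0.12). The effect of the first wIFN-α dose did not differ detectably between sexes for any P450 gene (0 of 43, and 0.0% of all genes), by edgeR, in which none had an unadjusted p under 0.05, or by DESeq2.

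For a few P450 genes much of the variation lay between animals. Among placebo biopsies 69.4% of the variance of log2(CPM + 1) lay between animals for CYP4X1 and 53.8% for CYP2J2, whereas the median over the 44 genes was 0.474% and 21 genes were at 0%. With the muscle-rich biopsies left out and the median of each week subtracted, the median share was 28.1% and 5 genes exceeded 50%. CYP4X1 had a median of 12.3 CPM in placebo animal 1024 (range 7.38 to 25.1 over 5 biopsies) and 0.374 CPM in animal 1009 (0.276 to 1.14 over 5 biopsies), and these ranges did not overlap. CYP4X1 differed in sign between fits at week 16, at 0.27 (adjusted p = 0.735) unpaired, -1.08 (adjusted p = 0.112) with the block and -1.04 (adjusted p = 0.0207) with the block without muscle-rich biopsies. CYP2J2 ranged from a median of 7.24 CPM in animal 1009 to 30.8 CPM in animal 1021. These are descriptions, with no test.

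The partners and regulators of P450 enzymes were followed with fixed lists. Their counts, and those of the lists further below, stand against the shares over all genes tested. At weeks 1, 4, 8, 12 and 16 these were 8.15, 3.54, 10.1, 7.98 and 8.83% lower and 10.3, 7.24, 11.4, 12.6 and 13.4% higher. Of 9 electron donors tested none was called in any dosing week, with POR, the reductase that feeds all microsomal P450s, at -0.37, -0.36 and -0.28 at weeks 8, 12 and 16. Among 11 or 12 tested genes of haem synthesis and breakdown, HMOX1, which degrades haem, was called higher at weeks 1, 8, 12 and 16 (1.67, 2.34, 1.69 and 2.49). At week 8 HMOX1 was 6.47 to 15.8 CPM (median 9.53) in placebo and 18.0 to 81.3 CPM (median 66.3) in wIFN-α animals, without overlap (adjusted p = 4.11e-08). The synthesis genes ALAD (-0.82 to -0.61) and CPOX (-0.98 to -0.62) were called lower in the same 4 weeks, and ALAS1, the rate-limiting synthase, at weeks 12 (-0.62) and 16 (-0.93).

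Of 26 transcription regulators of P450 genes tested, 8, 2, 8, 7 and 8 were called lower and 6, 1, 4, 3 and 3 higher at weeks 1, 4, 8, 12 and 16. NR1I3 was 48.0 to 94.9 CPM (median 78.7) in placebo and 21.4 to 38.1 CPM (median 33.5) in wIFN-α animals at week 8, without overlap (-1.34 ± 0.13, adjusted p = 1.44e-08), and it was also called at weeks 1, 12 and 16 (-1.26, -1.04 and -1.03). Its partner RXRA was called lower in the same weeks (-1.03 to -0.65), as were PPARA (-0.93 to -0.73) and the circadian factor TEF (-1.18 to -0.99). HLF, a relative of TEF, was called lower in all 5 weeks (-1.67 to -0.75). NR3C1, the glucocorticoid receptor, was called higher in all 5 (0.70 to 1.27). The regulators named here are a selection, and others were called in both directions at week 1. HNF4A, NR1I2 and AHR were called in no week, with NR1I2 at -0.35 and HNF4A at 0.02 at week 8.

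Other phase I enzymes, such as alcohol dehydrogenases and flavin monooxygenases, gave 2, 0, 4, 2 and 4 lower and 2, 1, 1, 2 and 2 higher calls among 25 genes, with ADH1A at -1.04 and XDH, which was higher, at 0.88 at week 16. Among 20 pericentral genes other than P450 genes 4, 1, 5, 3 and 3 were called lower and 1, 3, 3, 3 and 3 higher, and GLUL, the glutamine synthetase of pericentral hepatocytes, was called higher in every dosing week (0.86 to 1.01). Among 20 periportal genes 1, 0, 2, 5 and 4 were called lower and 1, 0, 0, 0 and 0 higher. Several counts of these lists were near the shares over all genes.

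T cell and proliferation markers were called higher mainly at weeks 12 and 16. Of 10 T cell markers, 6 were called higher at week 12 and 8 at week 16, against 1 in each earlier dosing week, with 1 lower at week 8. All 12 proliferation markers were called higher at both week 12 and week 16, against 1 at week 4, and 7 were called lower at week 1. T cell markers took 0.00511 to 0.0113% of reads in placebo and 0.0117 to 0.0296% in wIFN-α animals at week 16, without overlap, and proliferation markers 0.00191 to 0.00626% and 0.00257 to 0.0258%. Of 16 acute phase genes 3, 2, 7, 2 and 6 were called higher and 0, 1, 1, 0 and 0 lower at weeks 1, 4, 8, 12 and 16. Of 10 cholangiocyte markers 4, 4, 4, 2 and 3 were called higher, and of 10 Kupffer cell markers 1, 0, 0, 0 and 3 were called higher and 0, 0, 2, 1 and 1 lower. Of 15 or 16 interferon-stimulated genes tested, 15 were called higher in every dosing week. The part of T cells and of proliferating cells in the P450 differences was not tested.

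No hepatocyte marker was called lower in a dosing week. Of 12 markers only FGB, also an acute phase gene, was called, and it was higher at weeks 8 and 16 (0.72 and 0.85). The list took 7.72 to 10.4% of reads (median 9.19%) in placebo and 7.27 to 11.3% (median 8.69%) in wIFN-α animals at week 16, and ALB was at -0.03 ± 0.18 (adjusted p = 0.919). No skeletal muscle marker was called in any dosing week.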

How the data were processed

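Liver biopsies were sequenced from poly(A) RNA with an unstranded kit as 50 nucleotide read pairs. According to the deposited protocols and methods, the authors demultiplexed with CASAVA, checked reads with FastQC, mapped with Bowtie2 to their own woodchuck transcriptome assembly, whose transcripts were named by similarity to human, mouse and rat genes, and counted with SAMtools. Versions of these mapping and counting tools are not given here. The authors deposited 203 runs of 164 biopsies, each with an estimated count per gene, nearly all whole (118 of 3368023 entries were not), and an RPKM value scaled by gene length and run total.

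Runs of a biopsy were summed (38 biopsies had more than 1) and rounded. The WHV entry (0.0011 to 4.1182% of a run) was dropped. Of the biopsies 7 of animal 1004 and 8 of other weeks were left out, leaving 149. At each week the arms were compared with edgeR 4.0.16 (TMM normalization, filterByExpr, quasi-likelihood test) in R 4.3.3 with limma 3.58.1 and DESeq2 1.42.0 as alternatives. CPM are counts scaled to the library size of the biopsy, adjusted by TMM normalization over all biopsies. Differences between weeks came from 1 fit of all weeks and were called at an adjusted p of 0.05 without a fold threshold. The code was tested on simulated counts.

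The genes and lists were chosen with earlier results of these data known. The rule for genes given with full values took up to 6 with the lowest and up to 6 with the highest called change in the dosing weeks, the 6 of highest median RPKM, up to 6 called between sexes, up to 6 past the tests between weeks, and those nearest the 0.5 CPM limit. Other P450 genes were given values after these had been seen. The values of 1 of the 44 genes are not reported here, though it enters the counts. The labels name the animal, so pairing comes from the design. Deviations from group means correlated at a median of 0.286 over 450 pairs of biopsies of the same animal (325 above 0.1) and of -0.0229 over 4409 pairs of other animals, over 16232 genes. Animals are separate, but biopsies of an animal are not independent across weeks. Alternatives were another normalization or tool, no filter, the deepest run, animal 1004 included, sex or lane as covariate, the replicate block, other fold thresholds, leaving out each wIFN-α animal at weeks 1 to 20 and each placebo animal at weeks 16 and 20, and leaving out the muscle-rich biopsies. The lane covariate and the block without muscle-rich biopsies were added after the data were seen.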

Additional observations from a re-analysis of the deposited data

Results flagged for a closer look

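The effects of 4 P450 genes differed between week 16 and the mean of weeks 1 and 4 in the test of the difference itself with the replicate block, namely CYP2A13 (-2.03), CYP2A6 (-1.71), CYP2A7 (-2.06) and CYP4B1 (-0.52) on the log2 scale. In the main fit, without the block, no P450 gene passed that test. CYP1B1 differed between week 4 and week 1 by 7.41 in the fit without the block, on the strength of the few biopsies named above. With the block its difference was 4.26 (adjusted p = 0.0839), which did not pass.

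The left-out wIFN-α animal 1004 had CYP2R1 levels of 26.5, 22.3, 39.9, 36.0 and 12.1 CPM at weeks 1, 4, 8, 12 and 16, above the highest placebo animal of each week (4.51, 3.14, 6.06, 4.02 and 4.15 CPM). Dixon's test for an outlier flagged no biopsy in the 15 groups of 4 to 10 biopsies tested. Larger groups were not tested. This result does not mean that no biopsy was unusual, as the CYP1B1 level of wIFN-α animal 1012 and the MX1 level of wIFN-α animal 1013 at week 4 show.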

How the results depend on the processing

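Of 333 counts of P450 genes under alternatives, 282 lay within 1.5 times the reported count. With the replicate block, the paired fit gave 2, 1, 1, 7 and 11 genes lower at weeks 1, 4, 8, 12 and 16 and 1 higher at weeks 12 and 16. It gave 4 in the comparison of week 16 with weeks 1 and 4, and 0 between weeks 4 and 1. Without muscle-rich biopsies the block gave 1 lower at week 4, 1 higher at weeks 12 and 16, and 7 and 2 genes in those 2 comparisons. With 1 fit of all weeks 1, 6 and 10 genes were lower at weeks 4, 12 and 16, and with the lane as covariate 8, 1, 8 and 11 at weeks 1, 4, 12 and 16 and 1 higher at week 12. DESeq2 gave 1 lower at week 4, 2 in the comparison of week 16 with weeks 1 and 4, and 1 between sexes. limma-voom, the deepest run and animal 1004 each gave 1 lower at week 4, as did the fit without muscle-rich biopsies, which gave 1 and 2 genes in the comparisons between weeks. With a fold threshold of 2 there were 1, 2, 6 and 8 lower at weeks 1, 8, 12 and 16 and 1 higher at each dosing week, and with none 21 and 23 lower at weeks 8 and 12. Leaving out 1 animal gave 0 to 1 lower at week 4, 5 (without wIFN-α 1012) to 9 at week 8, and 1 to 2 higher at weeks 12 and 16. The cause of these shifts was not tested.

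Of 213 values of the 8 genes with the largest effects, 200 stayed called, 13 did not (CYP26B1 with the block, with and without muscle-rich biopsies, and CYP1B1 in 11), and 0 turned direction. CYP2R1 at week 16 ranged from 2.81 to 3.05, CYP2A7 from -2.56 to -1.95, and CYP1B1 from -2.06 to -0.40. CYP21A2, CYP4Z1 and CYP1B1 had the lowest mean CPM of the 44 genes.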

Other observations

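P450 levels changed over the weeks in untreated animals. In placebo biopsies without the muscle-rich ones, the highest week median exceeded the lowest by over 5 times in 8 of the 44 genes and by under 3 times in 32 (median 2.38). The ratios were 62.4 for CYP26A1, 23.7 for CYP2B6, 14.1 for CYP26B1, 12.2 for CYP2A13, 11.9 for CYP2A6, 10.2 for CYP2A7, 9.78 for CYP2F1 and 8.84 for CYP2B7P1. These genes were chosen after their values were seen, no test was run, and age, season, time since the first biopsy and repeated sampling cannot be told apart.

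CYP2B6 had a placebo median of 73.4 CPM at week -3, 1741 CPM at week 4, 1115 CPM at week 16, 121 CPM at week 20 and 115 CPM at week 24. It was higher at week 4 than at week -3 in 9 of 9 placebo animals and 8 of 8 wIFN-α animals, with median folds of 18.0 and 10.6. CYP2A7 was higher at week 16 than at week -3 in 8 of 8 placebo animals (12.5-fold at the median) and in 5 of 7 wIFN-α animals (2.77-fold). From week 8 to week 16 it was higher in 7 of 9 placebo animals and lower in 7 of 8 wIFN-α animals.

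CYP26A1 had a placebo median of 0.582 CPM at week 4 and 36.3 CPM at week 20. CYP2E1 was lower at week 8 than at week -3 in 11 of 11 placebo animals (2.17-fold at the median) and in 8 of 8 wIFN-α animals (3.08-fold).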
